A study of Homo sapiens with 2 samples.

Results

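ING5 occupancy was examined at 10 genes of fatty acid synthesis and desaturation, FASN, SCD, ACACA, ACACB, ACLY, ELOVL5, ELOVL6, FADS1, FADS2 and ACSS2, out of 19812 protein-coding genes with a position in GRCh38. A peak was assigned to a gene when its summit lay inside the gene or within 5 kb of it, which gave 12 of the 8608 peaks in the list. The summit nearest to that limit lay 2139 bp beyond the end of ACLY, and a reach of 10 kb added none. The data were 1 library of DNA precipitated with an ING5 antibody from sonicated nuclei of HepG2, a human liver cancer cell line, and 1 library of HepG2 input DNA without antibody. Cells of both groups were untreated, and the labels give no genetic change beyond the line itself. There were 12416160 fragments for ING5 and 9915170 for input. Every value below comes from 1 library and has no replicate error. Intervals, where given, are Poisson for fragment counts and binomial for shares of genes, and neither covers variation between libraries.

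Fatty acid synthesis turns cytosolic acetyl-CoA into saturated fatty acids, which ELOVL6 lengthens and SCD makes monounsaturated. ELOVL5, FADS1 and FADS2 serve the synthesis of polyunsaturated fatty acids. ACLY and ACSS2 supply acetyl-CoA, ACACA and ACACB make malonyl-CoA from it, and FASN joins these units into palmitate. The liver is a main site of the pathway, and many of its genes are known targets of the sterol regulatory element-binding proteins encoded by SREBF1 and SREBF2. ING5 carries a plant homeodomain finger for methylated histone tails and works as a subunit of histone acetyltransferase complexes of the MYST family.

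The upstream sequences of member genes with and without a peak are shown so that their base content can be read, although they differ in length and in the kind of start. They were taken from RefSeq (GRCh38.p14), read 5′ to 3′ in the direction of the gene, counted back from −1 at the base before the RefSeq start, and trimmed to the part free of annotated exons. Capitals mark CCAAT or GGGCGG on either strand. The SCD, ACLY, ACSS2 and FADS2 stretches belong to genes with a peak, but those of ACLY and ACSS2 hold no base of one.
SCD, chr10:100346983-100347232, plus strand: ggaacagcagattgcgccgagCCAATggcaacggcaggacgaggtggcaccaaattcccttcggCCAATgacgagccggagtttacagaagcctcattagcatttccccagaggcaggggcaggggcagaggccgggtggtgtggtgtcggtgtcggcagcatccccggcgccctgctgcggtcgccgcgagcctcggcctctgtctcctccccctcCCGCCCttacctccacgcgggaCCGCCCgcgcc
ACLY, chr17:41919023-41919272, minus strand, upstream of the RefSeq start 71 bp before the canonical one: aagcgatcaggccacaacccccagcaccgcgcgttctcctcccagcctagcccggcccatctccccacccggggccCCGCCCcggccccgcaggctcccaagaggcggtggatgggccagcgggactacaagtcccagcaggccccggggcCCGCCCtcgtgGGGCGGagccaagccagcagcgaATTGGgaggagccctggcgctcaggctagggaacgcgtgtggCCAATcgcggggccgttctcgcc
ACSS2, chr20:34876362-34876571, plus strand: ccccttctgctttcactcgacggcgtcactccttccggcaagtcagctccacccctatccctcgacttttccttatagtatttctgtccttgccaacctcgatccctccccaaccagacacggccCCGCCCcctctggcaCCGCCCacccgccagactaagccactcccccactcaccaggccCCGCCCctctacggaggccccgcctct
FADS2, chr11:61816154-61816255, plus strand, upstream of an alternative start and wholly inside a peak: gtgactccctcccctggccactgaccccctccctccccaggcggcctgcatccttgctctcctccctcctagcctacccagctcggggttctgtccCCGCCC
The ACACA, ACACB and ELOVL6 stretches belong to genes without a peak.
ACACA, chr17:37359122-37359346, minus strand, upstream of an alternative start: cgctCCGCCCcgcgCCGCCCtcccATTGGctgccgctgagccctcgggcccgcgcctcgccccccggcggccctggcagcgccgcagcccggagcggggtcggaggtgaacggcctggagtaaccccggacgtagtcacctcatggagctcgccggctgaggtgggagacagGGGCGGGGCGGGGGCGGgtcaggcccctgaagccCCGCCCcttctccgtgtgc
ACACB, chr12:109116337-109116586, plus strand: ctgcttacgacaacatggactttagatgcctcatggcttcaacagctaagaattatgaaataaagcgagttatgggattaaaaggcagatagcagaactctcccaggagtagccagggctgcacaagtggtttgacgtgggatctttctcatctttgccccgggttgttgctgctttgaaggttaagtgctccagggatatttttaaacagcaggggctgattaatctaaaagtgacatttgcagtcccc
ELOVL6, chr4:110198654-110198841, minus strand: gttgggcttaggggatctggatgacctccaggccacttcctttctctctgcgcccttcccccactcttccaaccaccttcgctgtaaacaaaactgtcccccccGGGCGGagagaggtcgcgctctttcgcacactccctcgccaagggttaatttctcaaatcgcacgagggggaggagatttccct

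ING5 peaks were listed at 7 of the 10 genes and missing at 3. FASN, SCD, ACLY, ELOVL5, FADS1, FADS2 and ACSS2 had a promoter peak, meaning a summit within 1000 bp of any annotated transcription start, while ACACA, ACACB and ELOVL6 had no peak in the gene or within 5 kb of it. Over all protein-coding genes 30.9% had a promoter peak, and 37.1% had a summit in the gene or within 5 kb. The exact binomial 95% interval of the members' share, 70.0%, ran from 34.8% to 93.3%. It treats the genes as independent draws, but they were chosen with earlier results known, so it was not read as a comparison with 30.9%. FADS1 and FADS2 shared 1 peak, so the 7 genes rested on 6 distinct best promoter peaks. By step, a peak was listed at the supply of acetyl-CoA, at palmitate synthesis, at SCD and at the steps to polyunsaturated fatty acids, and none at the carboxylases or at the elongase of palmitate. ACACA and ELOVL6 stand in stretches of 3.71 and 12.1 Mb without any listed peak, which hold the starts of 65 and 41 protein-coding genes. Whether the missing peaks belong to the pathway step or to the stretch was not tested.

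**Figure D1:**
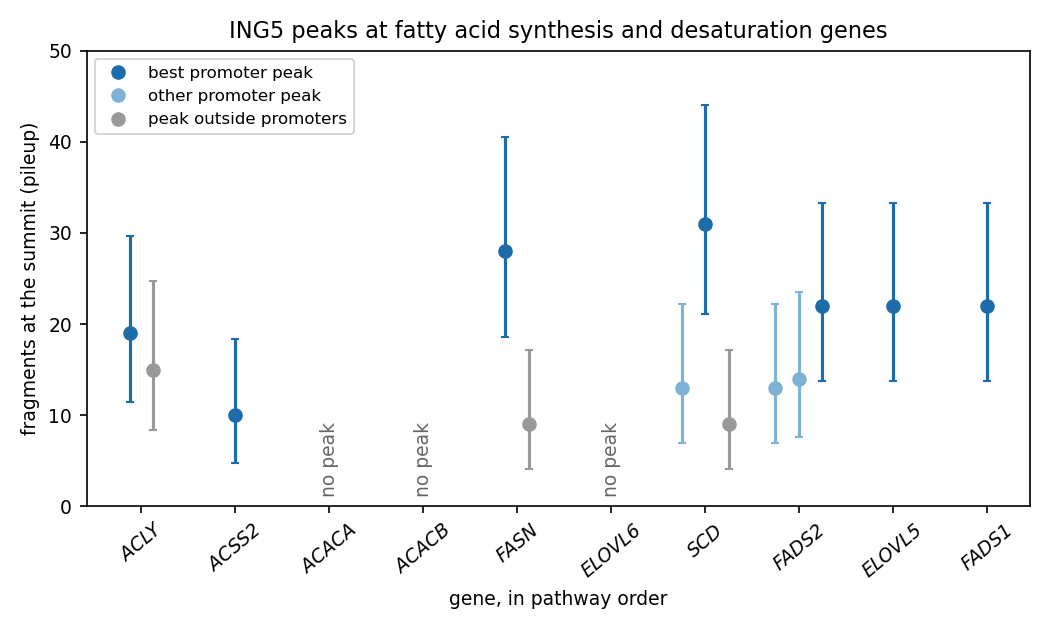
Number of ING5 fragments over the summit (y axis) of every peak in or within 5 kb of the 10 genes (x axis, in pathway order), with exact Poisson 95% intervals for counting error. Dark points are the best promoter peak of each gene, pale points other promoter peaks and grey points peaks outside promoters; SCD reached 31 fragments and ACSS2 10, and the peak drawn at FADS1 with 22 is the same as the dark one at FADS2.

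Both genes that supply acetyl-CoA had a peak downstream of their start. ACLY, the ATP citrate lyase that splits exported citrate, had a peak of 965 bp on chromosome 17 from 41917885 to 41918849, with 19 fragments at the summit (95% interval 11.4 to 29.7) and 8.88-fold enrichment over local background. Its summit lay in intron 1, 639 bp downstream of the canonical start, which is the start of the transcript that the annotation takes as the main one of the gene. The list also had a peak within 5 kb of the 3′ end of ACLY, from 41864713 to 41865271 with 15 fragments and 7.46-fold enrichment, which stood at the promoter of KLHL11 and 5941 bp from the nearest ACLY start. ACSS2, the cytosolic synthetase that makes acetyl-CoA from acetate, had the lowest of the best promoter peaks. That peak covered 249 bp on chromosome 20 from 34876815 to 34877063, with 10 fragments (4.80 to 18.4), 5.94-fold enrichment and a summit 260 bp downstream of the canonical start in intron 1.

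No peak was listed at either acetyl-CoA carboxylase gene, whose products make the malonyl-CoA used for chain growth and for restraint of fatty acid oxidation. ACACA was the longest of the 10 genes, at 322 kb on chromosome 17 from 37084992 to 37406818, with 18 annotated starts. The nearest summit lay 1450 kb from its canonical start. ACACA stands in a stretch of 3.71 Mb, between summits at 35142064 and 38853440, in which no peak was listed and which held the canonical starts of 65 protein-coding genes. These included TADA2A, next to ACACA in the opposite direction, the proteasome gene PSMB3, and MRPL45, all named after their values were seen. Among 8566 gaps between neighbouring peaks, 5 held as many coding starts or more, and the median gap held 1. Whether the missing peak at ACACA is particular to the gene or belongs to the whole stretch was not tested.

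ACACB, the carboxylase isoform of the outer mitochondrial membrane, spanned 152 kb on chromosome 12 and had 14 annotated starts. The nearest summit lay 18.1 kb away, at UNG, with 11 fragments and 6.47-fold enrichment. The gap around ACACB was 212 kb long and held 2 coding starts, ACACB and FOXN4, with summits at 109098512 and 109310291 on its sides. The lowest pileup of any peak over the genome-wide background of 0.853 fragments was 7, so a pileup below that at the 3 genes without a peak would not have been listed at this depth.

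FASN, the synthase that builds palmitate, had the widest of the 12 peaks and the highest fold enrichment. The peak covered 2436 bp on chromosome 17 from 82095505 to 82097940, and 17 of 6527 promoter peaks were wider. It had 28 fragments at the summit (18.6 to 40.5) and 15.6-fold enrichment, rank 147 of the list by −log10 p. The summit lay in intron 1, 793 bp downstream of the canonical start and 84 bp downstream of the start of a shorter coding transcript. A second peak with a summit in intron 3, 4050 bp downstream of the canonical start, covered 200 bp with 9 fragments (4.12 to 17.1) and 5.40-fold enrichment, and was 1190 bp from the nearest FASN start.

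SCD, the stearoyl-CoA desaturase that makes monounsaturated fatty acids, carried 3 peaks around its only annotated start. The main peak ran from 100347202 to 100348653 on chromosome 10, 1452 bp wide, with 31 fragments (21.1 to 44.0), 14.2-fold enrichment and a summit 317 bp downstream of the start in intron 1. The upstream peak had its summit 764 bp before the start, with 13 fragments (6.92 to 22.2) and 7.55-fold enrichment, near the start of a long noncoding RNA gene. The third had its summit in intron 2, 1839 bp downstream, with 9 fragments and 5.40-fold enrichment. The upstream peak ended 582 bp before the start and the main peak began 31 bp before it, so 219 of the 250 SCD bases printed above lay in the gap between them. The local background at the main peak was 1.25 fragments, against 0.853 at 9 of the 12 peaks; 1.25 is also the ratio of ChIP to input fragments.

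ELOVL6, which lengthens palmitate to stearate and so provides the substrate of SCD, had no peak. It spans 153 kb on chromosome 4 and has 8 annotated starts. The nearest summit, 2210 kb away, was the one at HADH, an enzyme gene of fatty acid oxidation, with 9 fragments. The gap around ELOVL6 was 12.1 Mb long and held 41 coding starts, among them that of the ribosomal protein gene RPL34, named after its values were seen, and 17 gaps held as many or more. As for ACACA, whether the missing peak is particular to the gene was not tested.

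The genes of polyunsaturated fatty acid synthesis had peaks of equal height. ELOVL5, the elongase of polyunsaturated acids, had a peak of 694 bp on chromosome 6 from 53348173 to 53348866, with 22 fragments (13.8 to 33.3), 12.4-fold enrichment and a summit 544 bp downstream of the canonical start in intron 1. FADS1 and FADS2, the front-end desaturases that act on either side of ELOVL5, lie head to head on chromosome 11 and shared a peak of 952 bp from 61815667 to 61816618. This peak also had 22 fragments and 12.4-fold enrichment. The equal values follow from equal whole-number pileups over the same background.

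The summit of the shared FADS peak did not lie within 1000 bp of either canonical start, although the peak itself began 385 bp downstream of that of FADS1. The summit was 1040 bp downstream of the canonical start of FADS1, in intron 1 of that transcript, and 12337 bp upstream of the canonical start of FADS2. It was 145 bp downstream of an alternative FADS1 start at 61816108 and 293 bp upstream of an alternative FADS2 start at 61816256, both of coding transcripts that point away from each other. No summit lay closer to the canonical start of FADS2, and none fell in the FADS2 gene downstream of that start. Another 2 peaks met the rule for FADS2 through a transcript without an annotated coding sequence that begins at 61792980. They had 13 and 14 fragments and 7.55-fold and 8.09-fold enrichment, and they stood at the starts of TMEM258 and of the replication nuclease gene FEN1, whose canonical start lay 3 bp from a summit. FADS3, the third gene of the cluster, had its own peak 543 bp downstream of its canonical start, with 11 fragments (5.49 to 19.7) and 6.47-fold enrichment.

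**Figure D2:**
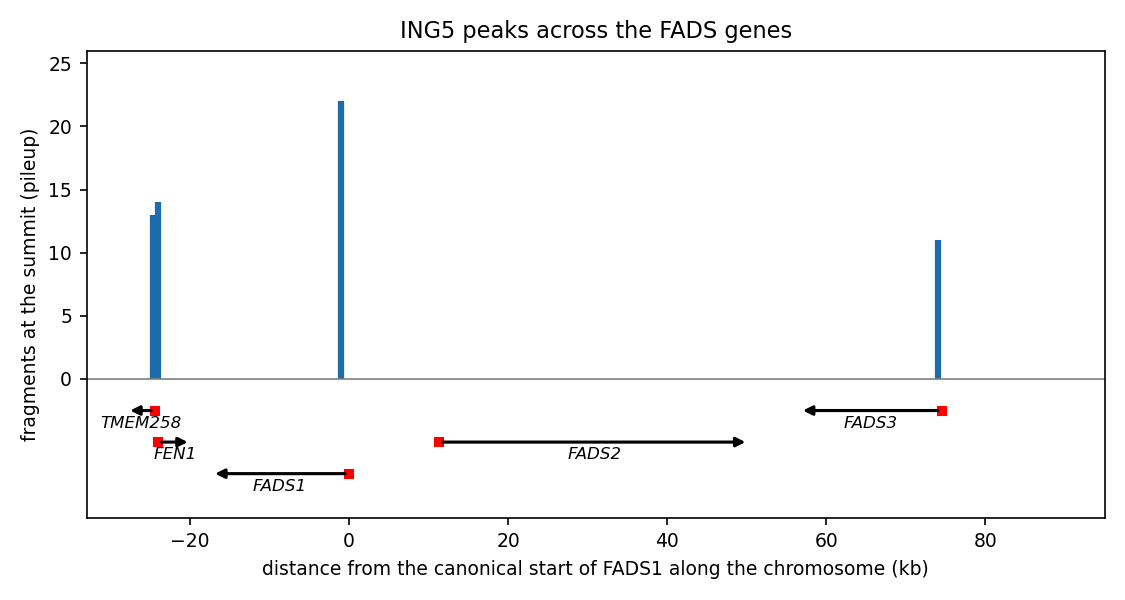
ING5 peaks across the FADS genes, drawn as the number of fragments at each summit (y axis) against distance from the canonical start of FADS1 along the chromosome in kb (x axis). Arrows show canonical transcripts from their start (red square) to their end; the peak of 22 fragments stands next to the start of FADS1, none stands at that of FADS2, and peaks of 13 and 14 stand at TMEM258 and FEN1.

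Apart from FADS2, the best promoter summits of the members lay downstream of the canonical start. The 6 summits lay 260 to 1040 bp downstream, each in intron 1. Over all genes with a best promoter summit within 1000 bp of the canonical start, 82.7% (95% interval 81.7 to 83.7) were downstream, with a median offset of 339 bp and quartiles of 152 and 531 bp, so ACSS2 and SCD lay within the quartiles and ELOVL5, ACLY and FASN beyond the upper one. The best peak covered the canonical start at 1 of the 6 genes, SCD, and began 84 bp downstream at ELOVL5, 102 bp at ACLY, 203 bp at ACSS2, 296 bp at FASN and 385 bp at FADS1. Among all genes with a best summit within 1000 bp of the canonical start, 87.2% had a best peak that did not cover the canonical start. FADS1 and FADS2 were the members with a promoter peak at alternative starts alone; 9.89% of all bound genes were like them. With canonical starts alone, 5 of the 10 genes had a promoter peak, beside 27.9% of all protein-coding genes.

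**Figure D3:**
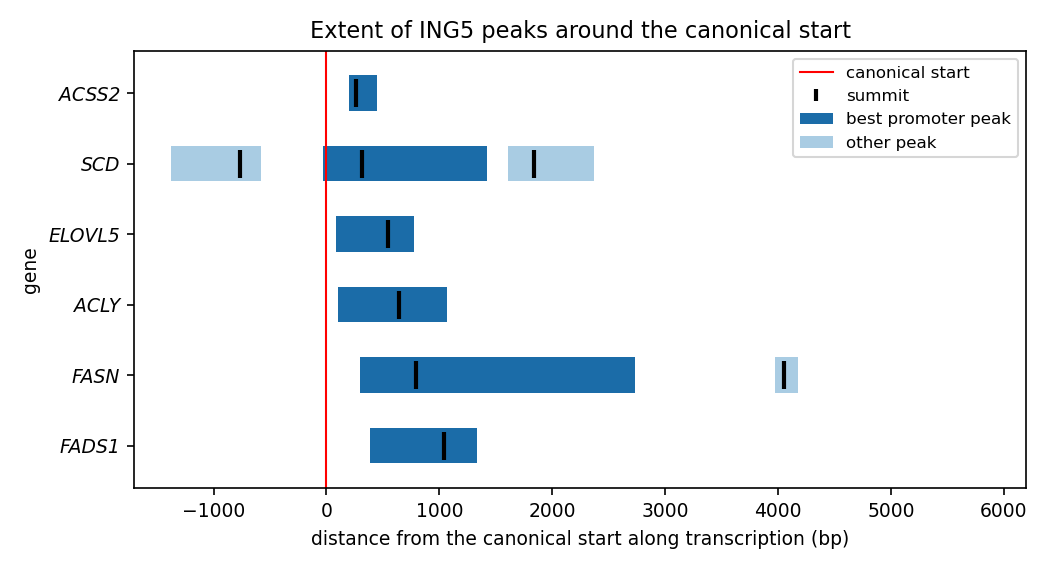
Extent of ING5 peaks (bars) and their summits (black ticks) in bp along transcription from the canonical start (red line, x axis) for 6 genes (y axis). Dark bars are best promoter peaks, of which only that of SCD covers the start, and pale bars are other peaks; the ACLY peak at KLHL11 and the FADS2 peaks far from its canonical start are not drawn.

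The members with a peak differed widely in its height. The best promoter peaks had from 10 to 31 fragments with a median of 22 over the 7 genes, beside a median of 13 over the best peaks of all 6126 bound genes. Their median fold enrichment was 12.4 against 7.01, and their median width 952 bp against 389 bp. Counting intervals of ACSS2 (4.80 to 18.4) and SCD (21.1 to 44.0) did not overlap, nor did those of ACSS2 and FASN, while the intervals of FASN, SCD, ELOVL5, the FADS genes and ACLY overlapped one another. Fold enrichment of 8 or more was reached by 6 of the 7 genes and by 34.2% of all bound genes. For 10 or more these were 5 genes and 13.4%, and for 12 or more 5 genes and 5.71%. FADS1 and FADS2 are both among the 5 genes through their shared peak. Within the 1000 most significant peaks of the list, 5 of the 10 genes kept a promoter peak, FASN, SCD, ELOVL5, FADS1 and FADS2, beside 4.77% of all protein-coding genes. By −log10 p, FASN exceeded 98.0% of bound genes, SCD 97.9%, ELOVL5 and the FADS genes 93.6%, ACLY 81.0% and ACSS2 21.0%. The members were chosen with earlier results known, so these values describe them and were not read as a comparison with all genes.

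**Figure D4:**
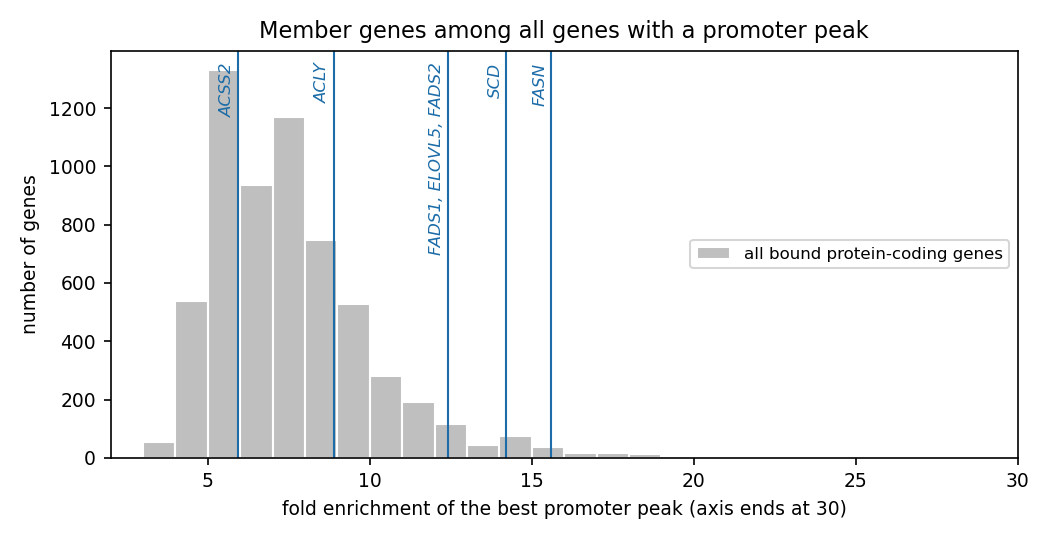
Number of genes (y axis) by fold enrichment of their best promoter peak (x axis, linear, ending at 30 with 3 genes beyond it) for all 6126 bound protein-coding genes in grey. Blue lines mark the 7 member genes: ACSS2 at 5.94 falls among the most common values, and ELOVL5, FADS1, FADS2, SCD and FASN lie between 12.4 and 15.6.

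Promoters rich in CpG were found among members with and without a peak. Of the members without one, ACACA and ELOVL6 lie in the long stretches without any listed peak given above. Whether CpG content goes with a peak was not tested. RefSeq windows of 300 bases, from 250 before a start to 50 after it, matched 9 of the 10 genes with 15 windows, and FASN was not matched. At the canonical starts of bound members, 4 of 5 windows held no base of a peak, and the SCD window held 81. The FADS2 windows at alternative starts lay inside the shared peak with all 300 bases. The ratio of observed to expected CpG, a measure of CpG islands with a median of 0.579 over 35116 windows, was 0.759 at SCD, 0.806 at the canonical start of ACLY, 1.06 at ELOVL5, 0.844 at FADS1 and 0.850 at the canonical start of ACSS2. In the FADS2 windows inside the shared peak it was 0.593 and 0.438. It was 1.10 in the ACACA window 363 bp before the canonical start and 0.815 at ELOVL6, both without a peak, while ACACB had 0.255 at its canonical and 0.889 at its alternative start. The other windows had 0.807 and 0.327 at ACACA, 0.744 at ACLY and 0.178 at ACSS2. The ACACB bases printed above hold neither motif in capitals.

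CCAAT, the box known to be bound by NF-Y, was searched on both strands and occurred in 9 of 15 windows (60.0%), beside 34.6% of all windows of that length. It appeared in a pair at SCD, ACLY and ELOVL5, which had a peak, and likewise in a pair in an ACACA window and in the window at the alternative start of ACACB, which had none. Another ACACA window and windows at alternative starts of ACSS2 and FADS2 held 1 each. GGGCGG, the GC box known to be bound by SP1, occurred in 11 of 15 windows (73.3%), beside 45.0%, with 7 matches, some overlapping, in the ACACA window around the stretch printed above. CACGTG, an E-box, occurred at ELOVL5 alone (7.26% of all windows). TCACNCCAC, a sterol response element, and TATAAA occurred in none, beside 1.13% and 11.5% of all windows. The ACLY windows overlap each other, as do those of FADS2, so these counts are descriptions.

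Genes that serve or border the pathway had promoter peaks at 33 of 68 (48.5%, 36.2 to 61.0), from 6 lists, beside 30.9% of all protein-coding genes. These genes were chosen too, so the interval was not read as a comparison with that share. Among the 4304 peaks with the highest −log10 p 25 of the 68 had one, beside 19.3% of all protein-coding genes at that threshold. Within the 1000 most significant peaks 4 did, SREBF1, SREBF2, INSIG1 and SLC25A1, or 5.88% beside 4.77%. These 4 came from the lists of regulators and of substrate supply, and with a share so near that of all genes no pattern was read from them. SREBF1 and SREBF2 each had 27 fragments (17.8 to 39.3) and 15.1-fold enrichment, with summits 272 and 643 bp downstream of the canonical start. INSIG1, which holds the precursors of these factors in the endoplasmic reticulum, had 18 fragments and 10.3-fold enrichment. SLC25A1, the carrier that exports citrate from mitochondria to ACLY, had 25 fragments (16.2 to 36.9) and 14.0-fold enrichment.

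Among regulators, 8 of 14 had a promoter peak, and NR1H2, NR1H3, MLXIPL, THRSP, MID1IP1 and INSIG2 had none. In substrate and NADPH supply 5 of 8 had one, with PC, the pyruvate carboxylase, at 9.17-fold and PGD, of the pentose phosphate pathway, at 8.09-fold. The other elongation and desaturation genes had a promoter peak at 6 of 15, led by TECR and HACD3 with 9.71-fold and HACD2 with 7.73-fold, all enzymes of the elongation cycle. The best peak of TECR stood within reach of a DNAJB1 start, 12358 bp upstream of the canonical start of TECR, which also had a peak within 1000 bp. Of the paralogues of members, ELOVL1 and FADS3 had a promoter peak, and ELOVL2, ELOVL3, ELOVL4, ELOVL7 and SCD5 had none.

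Mitochondrial fatty acid synthesis and acyl-CoA activation had promoter peaks at 5 of 10 genes, with ACSL3 at 8.09-fold and MCAT and ACSF3 at 7.55-fold. Glycerolipid synthesis, which uses the fatty acids made, had 2 of 9, LPIN1 at 7.55-fold and AGPAT2 at 7.01-fold. GPAM, AGPAT1, AGPAT3, LPIN2, DGAT1, DGAT2 and PLIN2 had no promoter peak. AGPAT3 and DGAT1 had a summit in the gene or within 5 kb, which made 4 of 9 by that rule, beside 37.1% of all protein-coding genes. Fatty acid oxidation, the opposing pathway, had 7 of 12, with enrichment between 4.86-fold and 7.26-fold, led by CPT2 of the carnitine shuttle with 7.26-fold and the acyl-CoA dehydrogenase genes ACADVL with 6.66-fold and ACADM with 6.20-fold. All 7 stood below the 8.88-fold of ACLY. The exact intervals of the 6 lists and of the members overlapped one another, and a difference between lists was not tested.

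**Figure D5:**
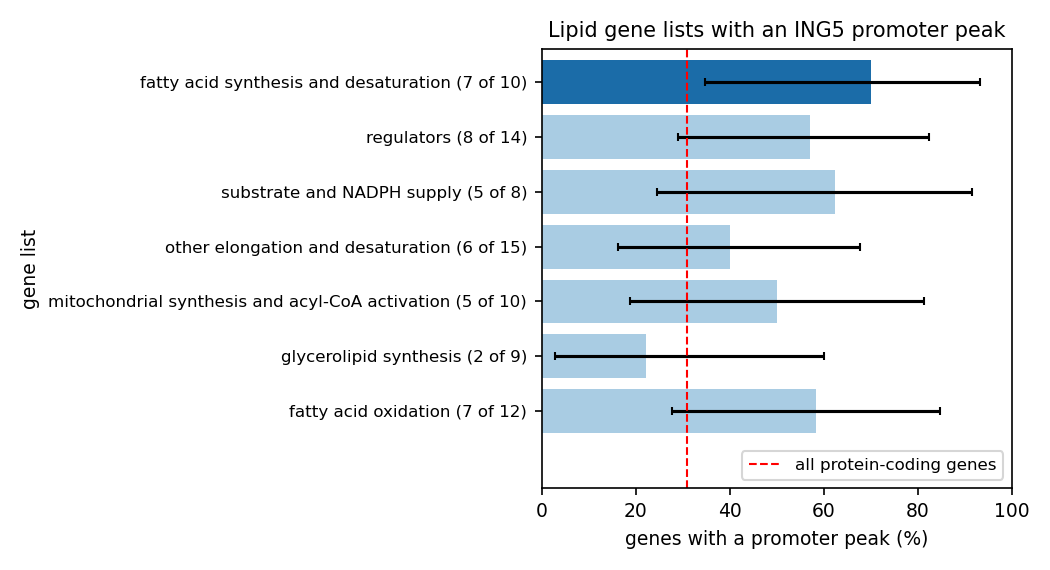
Share of genes with an ING5 promoter peak in percent (x axis) for the 10 genes of fatty acid synthesis and desaturation (dark bar) and the 6 related lists (pale bars, y axis). Exact binomial 95% intervals treat the chosen genes of each list as independent draws. The dashed line is the 30.9% of all protein-coding genes; the lowest list is glycerolipid synthesis with 2 of 9 and the highest bar the members with 7 of 10.

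The labelled cell type could not be checked from peaks. None of 11 hepatocyte markers, among them ALB, APOB and HNF4A, had a promoter peak, beside 30.9% of all protein-coding genes. None had a summit in the gene or within 5 kb either, beside 37.1%. The exact interval allows a share of up to 28.5%, but the markers were chosen, so it was not read as a comparison. None of 3 blood and 3 fibroblast or endothelial markers had a promoter peak. A peak list does not measure RNA, so these values say nothing of how strongly a gene was expressed.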

How the data were processed

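ING5 ChIP and input DNA from HepG2 were sequenced, and the ChIP came with 1 peak list. Per the file headers, the caller was MACS2 2.1.1.20160309 on paired ends, with the input as control, at a p cutoff of 1e-05 and a fragment size of 183 bp; the headers call the library by a name no label uses. Per the submitters' processing notes, fastp 0.19.6, Bowtie2 and deepTools were also used. Pileup, as deposited, is coverage: the count of ChIP fragments at the summit, whole in all 8608 peaks. The deposited significance is −log10 p, used for ranks with ties sharing the best rank. The deposited fold enrichment is a ratio of pileup to local background, from which the background was recovered with a pseudocount of 1. All 3 are values of the authors' caller, used within this list.

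GRCh37 is the build named in the labels, but 76.0% of 8589 chromosomal summits lay within 1000 bp of a coding start at GRCh38 positions, so coordinates were read as GRCh38. Gene positions came from the original locations that GENCODE 44 records for exons, and no coordinate was converted. Promoter sequences came from the RefSeq table (GRCh38.p14). Counts, exact binomial and exact Poisson 95% intervals were computed with Python 3.11.15, pandas 2.3.3 and scipy 1.17.1, and the join of peaks to starts was tested on simulated data. No test between groups was possible with 1 library each. Members and lists were chosen with earlier results of these data known. All 10 members, up to 3 genes of each related list with the highest −log10 p, genes sharing a peak with a member, SREBF1 and SREBF2 were named by rule; others were named after their values were seen. PECAM1 had no GRCh38 position. Alternatives changed the window, reach, start, overlap and peak threshold.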

Additional observations from a re-analysis of the deposited data

How the results depend on the processing

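The 3 genes without a peak, ACACA, ACACB and ELOVL6, had none under any of the alternatives, none of which could have added one. Their nearest summits lay 1450 kb, 18.1 kb and 2210 kb from the canonical starts, and the widest reach tried was 10 kb. Of the 10 genes, 3 had a promoter peak with a window of 200 bp (FASN, FADS1 and FADS2) in place of 7, and the other settings gave 5 to 7. The related genes fell from 33 to 16 with 200 bp and to 4 with the 1000 most significant peaks. The share of all protein-coding genes, 30.9%, was 13.5% with 200 bp, 32.9% with 3000 bp, 27.9% with canonical starts alone, 19.3% and 19.4% with the more significant or the higher-fold 4304 peaks, and 4.77% with the 1000 most significant, by construction of windows and thresholds. The 12 distinct peaks became 4 among the 1000 most significant. Measured to the nearest annotated start, the offset was 84 bp at FASN, 520 bp at ELOVL5, 145 bp at FADS1, −293 bp at FADS2 and 250 bp at ACSS2, in place of 793, 544, 1040, −12337 and 260 bp. The median pileup of 22 held under both alternatives run for it. No paired analysis was possible because each group has 1 library. Depth limits the list to summits of 7 fragments or more.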

Other observations

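Long stretches without a peak bear on some genes of the lists, and are given as values without an explanation. The 5 gaps between neighbouring summits with the most coding starts held 185 starts on chromosome 6 (28485161 to 33621791), 112 on chromosome 19 (51366217 to 55116857), 68 on chromosome 11 (4653005 to 6319386), 68 on chromosome 11 (47981804 to 57324013) and 65 on chromosome 17 (35142064 to 38853440). ACACA lies in the last of these, and AGPAT1, of glycerolipid synthesis, in the chromosome 6 gap. No other member or related gene has its canonical start in these 5 gaps.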
